A study of Mus musculus with 124 samples.

Results

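Cry1, Cry2, Ciart, Bhlhe40 and Bhlhe41 encode repressors of the circadian clock. They were chosen by name from the cortex and liver expression tables of a study of sleep deprivation in mice, and all 5 were present among the 17108 named genes of cortex and the 13338 of liver. RNA of both tissues of the same 62 mice was sequenced. The mice were 11 to 12 weeks old, lived in 12 h of light and 12 h of dark and had food at will. The labels name neither strain nor sex. The 26 undisturbed control mice are grouped by zeitgeber time (ZT, hours since lights came on): ZT0 (8 mice, from the start and the end of the baseline day), ZT3 (3 mice), ZT6, ZT12 and ZT18 (5 mice each). The other 36 were kept awake by gentle handling from light onset of the second day, T24, where T counts hours from the first light onset. Of these, 3 mice were sampled at T27 after 3 h of deprivation, 3 at T30 at its end after 6 h, and 3 at each of 10 recovery times. The recovery times were T36, T42 and T48, then T54, T60 and T66, then T72 and T78, and last T192 and T198. T192 and T198 fell 7 days after the start and the end of deprivation in turn. Every deprived group was compared with the control of the same time of day.

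In the mammalian clock, CLOCK and BMAL1 (the product of Arntl) bind E-box sequences and switch on genes whose products later shut them down. The cryptochromes CRY1 and CRY2 do this together with the PER proteins. CIART, also called CHRONO, binds BMAL1 and lowers its activity, and BHLHE40 and BHLHE41, also called DEC1 and DEC2, are basic helix-loop-helix proteins that occupy E-boxes themselves. Transcripts of these repressors cycle over the day in most tissues, and Bhlhe40 also responds to many acute stimuli.

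The E-box is the sequence through which CLOCK and BMAL1 act and which the DEC proteins bind, so the stretches upstream of the members are shown with it. RefSeq promoter windows of build GRCm38.p6 (250 bases before to 50 after the start) were at hand for 4 members, all on the minus strand; Bhlhe40 had no entry. Each sequence below runs 5′ to 3′ from 250 bases before the RefSeq start and ends before the more upstream of the RefSeq and GENCODE M21 gene starts. Capitals mark the E-box CACGTG and the E-prime box CACGTT, the latter seen here on the opposite strand as AACGTG.
Ciart, chr3:95882252-95882478: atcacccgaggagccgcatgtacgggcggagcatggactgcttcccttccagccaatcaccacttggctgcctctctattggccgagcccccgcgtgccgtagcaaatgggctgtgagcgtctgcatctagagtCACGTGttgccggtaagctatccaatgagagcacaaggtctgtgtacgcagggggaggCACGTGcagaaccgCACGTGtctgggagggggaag
Bhlhe41, chr6:145865559-145865670: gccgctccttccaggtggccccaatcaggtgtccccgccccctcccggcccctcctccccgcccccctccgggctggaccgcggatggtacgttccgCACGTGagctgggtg
Cry1, chr10:85185065-85185304: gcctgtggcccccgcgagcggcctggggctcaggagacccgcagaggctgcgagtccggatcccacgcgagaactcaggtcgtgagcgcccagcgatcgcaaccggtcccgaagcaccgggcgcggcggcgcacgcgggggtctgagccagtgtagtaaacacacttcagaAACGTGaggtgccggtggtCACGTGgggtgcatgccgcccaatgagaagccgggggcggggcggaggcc
Cry2, chr2:92434070-92434319: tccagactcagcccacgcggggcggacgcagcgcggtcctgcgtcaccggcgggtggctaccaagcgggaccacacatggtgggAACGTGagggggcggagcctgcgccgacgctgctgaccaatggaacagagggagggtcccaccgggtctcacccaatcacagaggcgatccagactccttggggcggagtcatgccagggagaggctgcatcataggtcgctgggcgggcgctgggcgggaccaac

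Ciart held 3 copies of the E-box, at 116, 58 and 44 bases before the RefSeq start. Of all 32851 promoter windows in the table, 7.15% held at least 1 E-box and 0.0883% held 3 or more. Bhlhe41 held 1 E-box and no E-prime box, Cry1 held 1 of each, and Cry2 held 1 E-prime box only; the E-prime box occurred in 4.68% of windows. Exact matches on either strand to a D-box (TTATGTAA, in 0.938% of windows), the core of a ROR element (AGGTCA, 16.3%), a cAMP response element (TGACGTCA, 1.79%), a glucocorticoid response element (0.475%) and a heat shock element core (GAANNTTC, 7.86%) were not present in these 4 windows. Such matches describe the letters of the window and nothing more. The genes, all protein-coding, lie in GENCODE M21 at chr10:85131700-85185064 (Cry1), chr2:92403646-92434043 (Cry2), chr3:95878503-95882251 (Ciart), chr6:145858243-145865558 (Bhlhe41), all on the minus strand, and chr6:108660629-108666925 (Bhlhe40, plus strand).

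Expression is given as log2 CPM, where CPM is a gene's share of the library's counts scaled to a fixed total, the unit of the deposited values, and a change is the difference of 2 group means on this log2 scale with its standard error (SE). Changes were tested with limma and called at a Benjamini-Hochberg adjusted p under 0.05 over all genes of the tissue. The 5 neuronal markers checked (such as Snap25) summed to 7131 to 8693 CPM in every cortex library and the 5 hepatocyte markers (such as Alb) to 78871 to 121202 CPM in every liver library; of the hepatocyte markers 2 were listed in cortex, at a sum of at most 12.9 CPM, and of the neuronal markers 2 were listed in liver, at a sum of at most 23.1 CPM. The choroid plexus markers, 3 of 5 listed in cortex, stood at 8.09 to 122 CPM in the ZT3 controls and at 4.71 to 6.31 CPM at T27. Every ZT3 control thus lay above every T27 library, and their part in the T27 calls below was not tested. Those calls held without any single library, with changes of 0.88 to 1.10 for Bhlhe40 and 0.43 to 0.58 for Cry1. Leaving out 1 library does not remove the marker difference. The liver values had been adjusted before deposit for a factor of 3 levels that no label names, so liver p-values are too small. In bulk tissue, fewer cells of a type and less RNA per cell cannot be told apart.

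In undisturbed mice all 5 repressors varied over the day in both tissues, over wider ranges of means in liver, a difference between tables normalised apart that was not tested. The test across the 5 times of day called 5 of 5 members in cortex, where it called 41.9% of all genes, and 5 of 5 in liver, where it called 52%. Ciart had the widest range of the 5 in both tissues, from 3.08 ± 0.14 (SD, n = 8) at ZT0 to 5.19 ± 0.13 (SD, n = 5) at ZT12 in cortex, and from -1.41 ± 0.77 (SD, n = 8) at ZT0 to a ZT12 group with a lowest value of 4.17, a median of 5.06 and a highest of 5.48 in liver. The range was 2.11 on the log2 scale in cortex (limma F test, adjusted p = 2e-15) and 6.41 in liver (adjusted p = 2.65e-18). Ciart at ZT0 in liver ran from -2.75 through a median of -1.42 to -0.01, below 1 CPM in every library.

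Between single control times, the pairwise tests called from 0.129% (ZT3 against ZT6) to 30.7% (ZT6 against ZT18) of all genes in cortex, and from 0.375% (ZT0 against ZT3) to 32.7% (ZT0 against ZT12) in liver.

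The cryptochromes differed in their timing. In cortex Cry1 was high at ZT18 (4.57 ± 0.10, SD, n = 5), ZT0 (4.54 ± 0.08, SD, n = 8) and ZT12 (4.49 ± 0.11, SD, n = 5), and low at ZT3 (4.00 ± 0.06, SD, n = 3) and ZT6 (3.78 ± 0.22, SD, n = 5). In that order only ZT12 and ZT3 differed among neighbours (limma, adjusted p = 9.93e-05). In liver Cry1 kept the same order of times over a range of 3.07, with means of 5.38, 4.70, 4.25, 3.70 and 2.31, and each neighbouring pair differed except ZT12 and ZT3 (limma, adjusted p = 0.0727).

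Cry2 was flatter. In cortex it moved by 0.28 on the log2 scale, from 7.54 ± 0.10 (SD, n = 5) at ZT18 to 7.26 ± 0.14 (SD, n = 5) at ZT6 (limma F test, adjusted p = 7.41e-06), and no neighbouring pair in the order ZT18, ZT0, ZT12, ZT3, ZT6 passed the threshold. In liver its mean was highest at ZT6, 5.84 ± 0.26 (SD, n = 5), and lowest at ZT0, 4.74 ± 0.19 (SD, n = 8); ZT6, ZT12 (5.71) and ZT18 (5.70) did not differ from each other beyond the threshold, nor did ZT3 (5.09) and ZT0. The change from ZT6 to ZT0 thus had opposite signs: Cry2 at ZT0 minus ZT6 was 0.21 in cortex (limma, adjusted p = 0.000181) and -1.10 in liver (adjusted p = 2.12e-10).

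Bhlhe41 shared with Ciart a peak at ZT12 in cortex, 5.65 ± 0.15 (SD, n = 5), followed by ZT6 (5.21), ZT18 (5.17), ZT0 (4.73) and ZT3 (4.59). ZT6 and ZT18 did not differ (limma, adjusted p = 0.771), nor did ZT0 and ZT3 (adjusted p = 0.434). In liver Bhlhe41 peaked at ZT6, 2.52 ± 0.96 (SD, n = 5), followed by ZT12 (0.76), and fell below 1 CPM on average at ZT3 (-0.79), ZT18 (-0.99) and ZT0 (-1.68), which did not differ among neighbours. Its paralog Bhlhe40 was highest at ZT0 in cortex, 7.46 ± 0.21 (SD, n = 8), and lowest at ZT3, 6.74 ± 0.19 (SD, n = 3), a range of 0.72 (limma F test, adjusted p = 0.000154), with ZT18 (7.40), ZT12 (7.27) and ZT6 (7.07) between them. In liver Bhlhe40 ran from 6.94 ± 0.26 (SD, n = 5) at ZT12 through ZT6 (6.69), ZT18 (6.36) and ZT3 (5.97) to 5.63 ± 0.37 (SD, n = 8) at ZT0. In these orders of means, which are not orders of time, no neighbouring pair passed the threshold for Bhlhe40 in either tissue. Its highest and lowest cortex groups, ZT0 and ZT3, were consecutive in time.

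**Figure D1:**
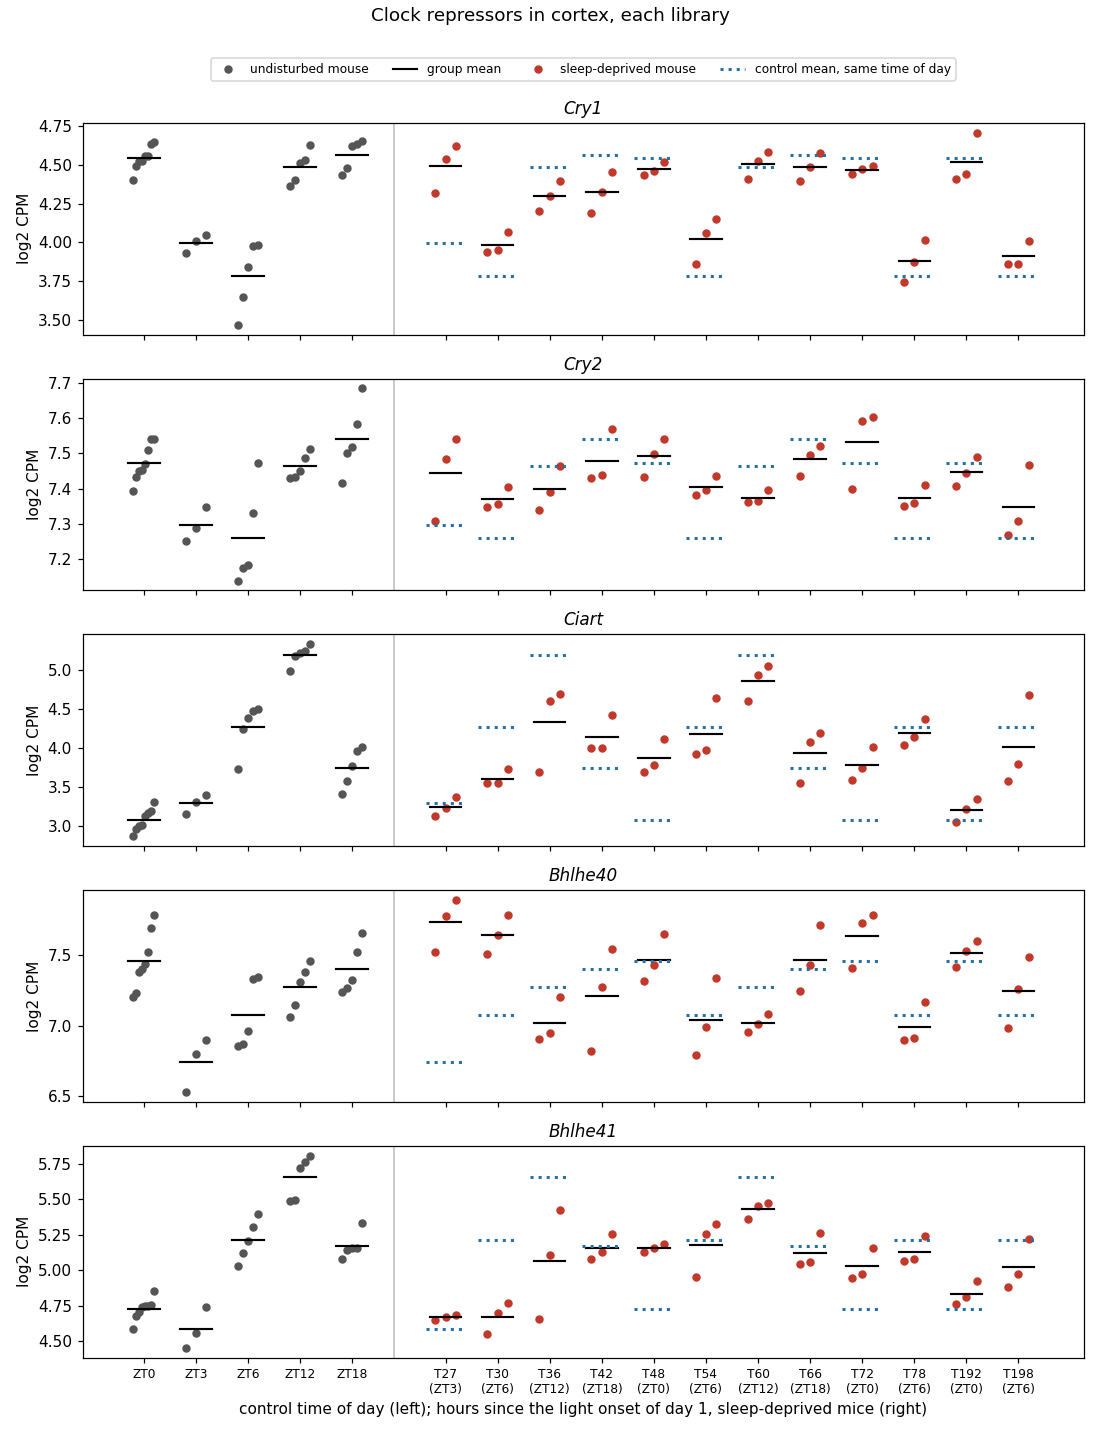
Log2 CPM of the 5 repressors in each cortex library, by control time of day (left) and by deprived time (right); points are mice, black bars group means, and dotted bars the control mean of the same time of day. Bhlhe40 and Cry1 lie above the dotted bar at T27, and Ciart and Bhlhe41 lie below it at T30 and T36 and above it at T48.

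**Figure D2:**
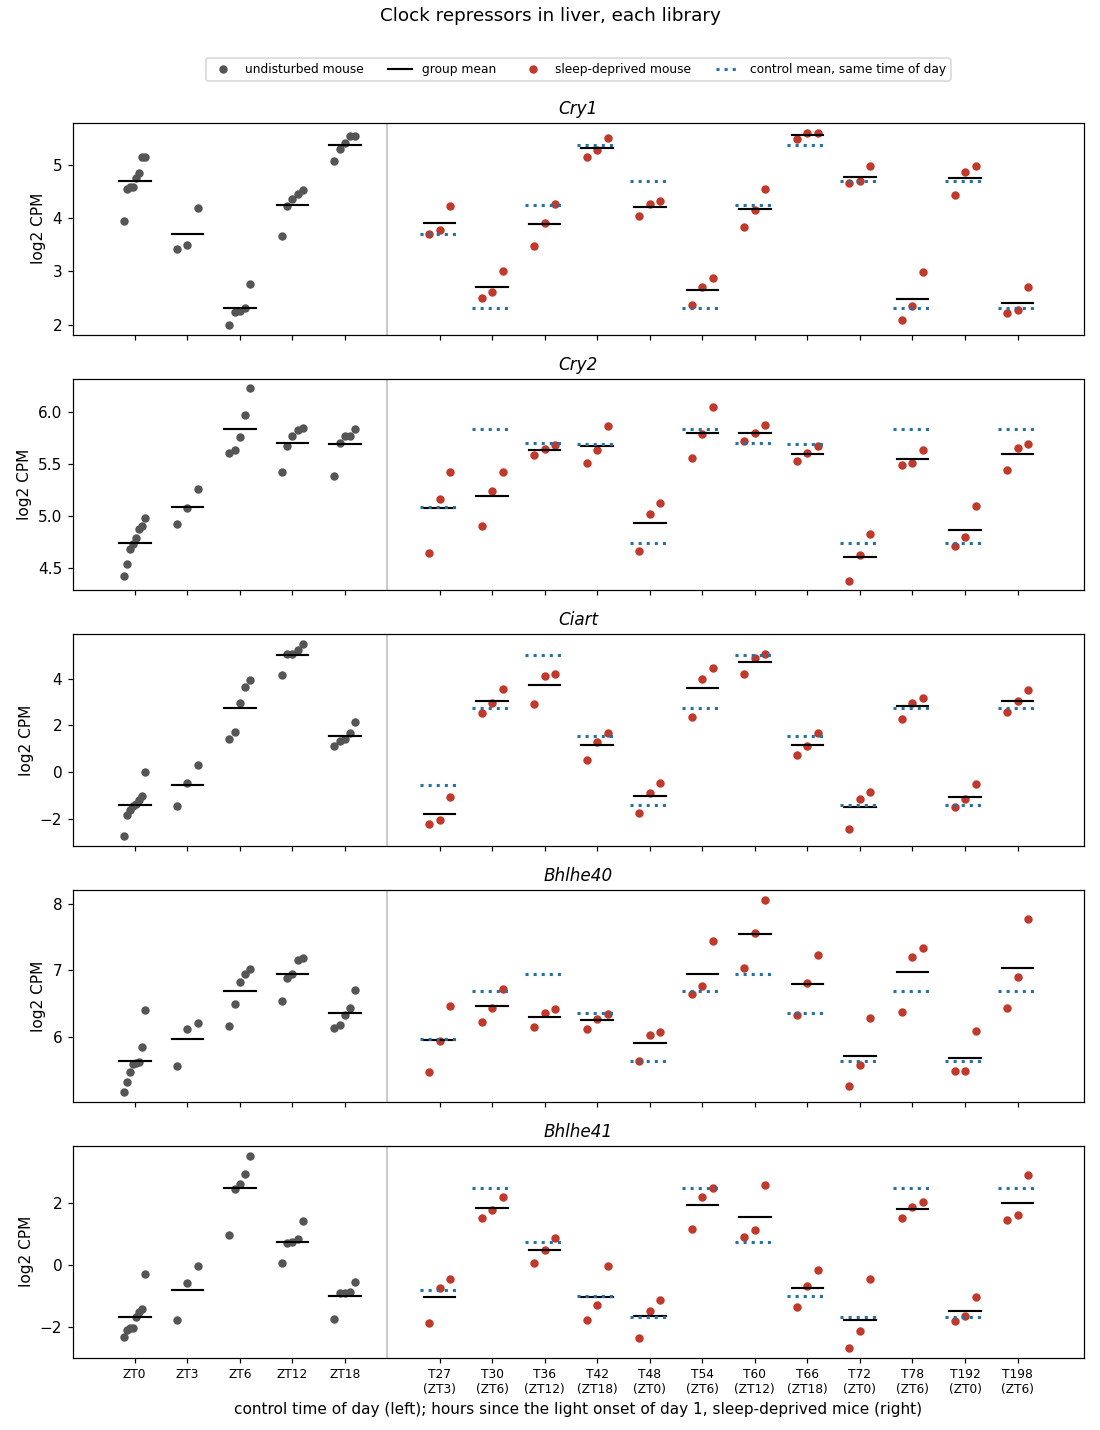
Log2 CPM of the same genes in each liver library, drawn in the same way. The daily range is widest for Ciart (6.41), and at T30 the 3 deprived mice lie below all 5 controls for Cry2.

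During and after deprivation the cortex showed 9 called changes among the 60 combinations of member and time, 5 higher and 4 lower, all between T27 and T48. The liver showed 1 of 60, lower Cry2 at T30. At T27 in cortex 2 of 5 members were called, both higher, where 16.4% of all genes were called (8.59% higher); at T30 3 of 5, 1 higher and 2 lower, where 32.4% were called (15.7% higher and 16.8% lower); at T36 2 of 5, both lower, where 12.5% were called (5.58% lower); at T42 0 of 5, where 1.03% were called; and at T48 2 of 5, both higher, where 1.49% were called (0.772% higher). With 5 members, these counts were not tested against the background. In each of the 9 called changes the 2 groups did not overlap, which held for 34.4% of all genes at T27, 33.3% at T30, 20.3% at T36 and 4.88% at T48.

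Bhlhe40 rose most. After 3 h of deprivation the cortex of the 3 mice held 7.53, 7.78 and 7.89 log2 CPM, against 6.53, 6.80 and 6.90 in the ZT3 controls. All deprived mice lay above all controls, which were the lowest control group of the day for this gene. The change was 0.99 ± 0.16 (SE), 1.99-fold higher than the ZT3 controls (limma, adjusted p = 9.32e-06). The T27 mean was 7.73 and the ZT0 control mean 7.46, and T27 was not tested against ZT0. At the end of deprivation, T30, values of 7.51, 7.64 and 7.79 stood against 6.85, 6.87, 6.96, 7.33 and 7.35 at ZT6. The groups again did not overlap, and the change was 0.57 ± 0.14 (SE), 1.49-fold (limma, adjusted p = 0.00166). At T36, 6 h into recovery, Bhlhe40 was at -0.25 ± 0.14 (SE) relative to its control (limma, adjusted p = 0.269), and no later time was called.

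Cry1 was higher than its control in cortex at T27 and was called at no other time. Its T27 mean was 4.49, and the ZT0 control mean, at the time of day when deprivation began, was 4.54. T27 was not tested against ZT0. The deprived mice held 4.32, 4.54 and 4.62 log2 CPM, the ZT3 controls 3.93, 4.01 and 4.05. No value was shared between the ranges, and the change was 0.50 ± 0.09 (SE), 1.41-fold (limma, adjusted p = 0.000149). At T30 the change was 0.20 ± 0.09 (SE) with overlapping groups (limma, adjusted p = 0.0691), and without either of 2 ZT6 controls, coded T6N3 and J76N1, it passed the threshold (adjusted p = 0.0212 and 0.0264). Cry2 in cortex did not pass at either time. Its changes were 0.15 ± 0.06 (SE; limma, adjusted p = 0.0928) at T27, which passed without the mouse coded T27S2 (0.21, adjusted p = 0.0227), and 0.11 ± 0.06 (SE; adjusted p = 0.132) at T30, which passed without the control J76N1 (0.16, adjusted p = 0.0181).

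Ciart and Bhlhe41 were both lower than their controls in cortex at T30 and T36 and higher at T48. The Ciart means were 3.24, 3.60 and 4.33 at T27, T30 and T36, against 3.29, 4.27 and 5.19 at ZT3, ZT6 and ZT12. Those of Bhlhe41 were 4.67, 4.67 and 5.06, against 4.59, 5.21 and 5.65. From T27 to T36 both means thus went up, by less than in controls. At T27 neither had changed by the test, with -0.04 ± 0.21 (SE) for Ciart and 0.08 ± 0.11 (SE) for Bhlhe41. At T30 Ciart stood at 3.54, 3.55 and 3.73 in the deprived mice, against 3.73, 4.25, 4.38, 4.47 and 4.49 in the ZT6 controls. The highest deprived mouse and the lowest control, T6N3, nearly met. The change was -0.66 ± 0.19 (SE), 1.58-fold lower (limma, adjusted p = 0.00605). Bhlhe41 at T30 stood at 4.55, 4.70 and 4.77, against 5.03, 5.12, 5.20, 5.30 and 5.40. These groups were clearly apart, with a change of -0.54 ± 0.10 (SE), 1.45-fold lower (limma, adjusted p = 3.24e-05).

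At T36, 6 h after deprivation ended, the library of the mouse coded T36S1 was the lowest of its group for both genes. Ciart there was 3.69, whereas the other deprived mice held 4.60 and 4.69 and the ZT12 controls 4.99, 5.18, 5.21, 5.24 and 5.33. All deprived mice lay below all controls, and the change was -0.86 ± 0.19 (SE), 1.82-fold lower (limma, adjusted p = 0.00131); without T36S1 it was -0.54 and no longer passed (adjusted p = 0.095). Bhlhe41 at T36 was 4.66 in T36S1, 5.11 and 5.43 in the others, and 5.49, 5.50, 5.72, 5.76 and 5.81 in controls. Again the groups did not overlap, with a change of -0.59 ± 0.10 (SE), 1.51-fold lower (limma, adjusted p = 2.79e-05), which without T36S1 was -0.39 and still passed (adjusted p = 0.00838). The summed oligodendrocyte markers of cortex (4 of 4 listed) were 1855 to 2003 CPM at T36 and 1970 to 2526 CPM at ZT12; their part in the T36 results was not tested.

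At T48, a full day after deprivation began, the sign was the opposite. Ciart held 3.69, 3.78 and 4.12 in the deprived mice, against a lowest, median and highest value of 2.86, 3.07 and 3.31 in the 8 ZT0 controls. Every deprived mouse lay above every control, and the change was 0.78 ± 0.18 (SE), 1.72-fold (limma, adjusted p = 0.0143); without the mouse coded T48S4 it was 0.66 with an adjusted p of 0.129. Bhlhe41 held 5.13, 5.16 and 5.18, against 4.59, 4.75 and 4.85 (lowest, median and highest) in controls. The ranges were apart here too, and the change was 0.43 ± 0.09 (SE), 1.35-fold (limma, adjusted p = 0.00924). Beside these values, the summed oligodendrocyte markers were 2838 to 3230 CPM at T48 and 2097 to 2884 CPM at ZT0; their part in the T48 result was not tested.

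**Figure D3:**
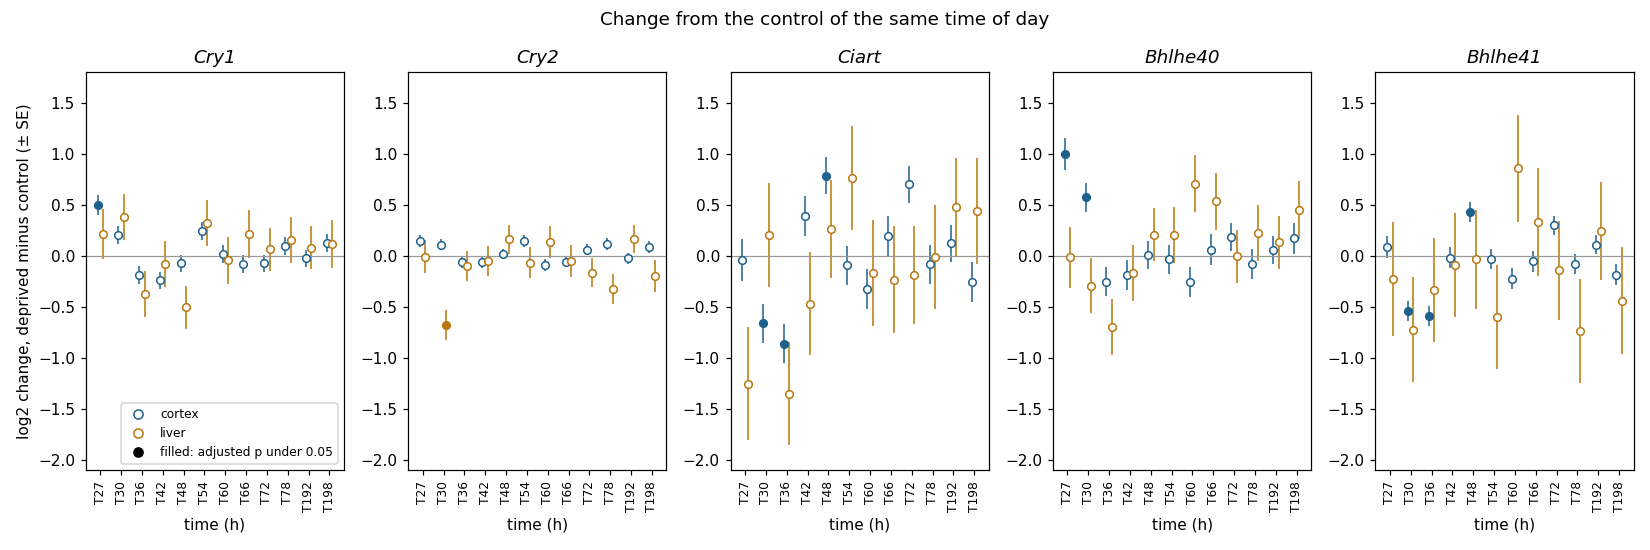
Log2 change of each repressor, deprived minus control of the same time of day, with SE bars, at the 12 deprived times in cortex (blue) and liver (orange); filled points have an adjusted p under 0.05. In cortex 9 points are filled, all between T27 and T48, and in liver 1, Cry2 at T30 (-0.68).

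Group means in cortex spanned less during the first day after deprivation began for 4 of the 5 members. Over the 4 times T30, T36, T42 and T48 the group means of Ciart spanned 0.72 on the log2 scale, from 3.60 to 4.33, whereas over ZT0, ZT6, ZT12 and ZT18 they spanned 2.11. The span of Bhlhe41 was 0.48 against 0.93 at baseline, that of Cry1 0.49 against 0.78, and that of Cry2 0.12 against 0.28. Bhlhe40 went the other way, with a span of 0.63 against 0.38. That direction depends on the choice of times. They leave out ZT3, the lowest control group of Bhlhe40 in cortex (6.74), and T27, its highest deprived group (7.73). In liver all 5 spanned less than at baseline: 2.61 against 3.07 for Cry1, 0.74 against 1.10 for Cry2, 4.78 against 6.41 for Ciart, 0.54 against 1.31 for Bhlhe40 and 3.50 against 4.20 for Bhlhe41. Of all genes, 42.5% in cortex and 50.3% in liver spanned less on that day than at baseline. The T30, T36, T42 and T48 groups are compared with the same controls, and no test was made of these spans.

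On the second day (T48, T54, T60 and T66) Ciart spanned 1.00 and Bhlhe41 0.31 in cortex. The difference between the second-day profile and baseline was tested from the contrasts of times 12 h apart, T48 minus T60 and T54 minus T66. The first of these contrasts had moved by 1.11 for Ciart and 0.65 for Bhlhe41 relative to ZT0 minus ZT12. Neither passed (limma F test, adjusted p = 0.108 and 0.0886), and 0 of 5 members were called, where 0.0117% of genes were called. The calls changed when single libraries were left out. Both genes passed without T54S4 (adjusted p = 0.0134 for Ciart and 0.0146 for Bhlhe41) or without T66S2 (0.0399 and 0.0437). Bhlhe41 alone passed without T36S1 (0.0474), and Ciart alone, just under the threshold, without T6N3 (0.05 after rounding). The F value of Bhlhe41 was 10.18 with all libraries, 10.17 without T66S2 and 10.71 without T54S4. An adjusted p also depends on the p-values of all other genes. T60 and T66 lie wholly in the second batch that the labels give and T48 and T54 in the first, so no single batch holds the contrast. Without a batch term in the model both genes passed (limma F test, adjusted p = 0.0337 for Ciart and 0.019 for Bhlhe41). The cortex values had been adjusted for that batch before deposit, so p-values without the term are too small. With controls taken from the same batch as each deprived group neither gene passed (0.238 and 0.29).

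From T54 to T198 no member was called in cortex among 35 comparisons, and 0% of all genes were called by limma at each of these 7 times. Of the 35, 6 had an unadjusted p under 0.05. The share of all genes with such an unadjusted p was not recorded, so this count has no background beside it. At T72, Ciart was 3.59, 3.74 and 4.01 and Bhlhe41 4.95, 4.98 and 5.16 in the deprived mice, all above the 8 ZT0 controls. The changes were 0.70 ± 0.18 (SE; limma, adjusted p = 0.425) and 0.30 ± 0.09 (SE; adjusted p = 0.507), and 2.19% of all genes had groups that did not overlap at this time. By T192, 7 days after light onset of the deprivation day, Ciart (3.05, 3.21 and 3.35) and Bhlhe41 (4.76, 4.81 and 4.93) overlapped the controls. At T60 the 3 deprived mice lay below all controls for Cry2 (7.36, 7.36 and 7.40) and Bhlhe41 (5.36, 5.45 and 5.47), with changes of -0.09 ± 0.06 (SE; adjusted p = 0.776) and -0.23 ± 0.10 (SE; adjusted p = 0.688), where 8.23% of genes did not overlap.

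In liver the one call was Cry2 at the end of deprivation. The deprived mice held 4.90, 5.24 and 5.43 log2 CPM at T30, and the ZT6 controls 5.60, 5.63, 5.76, 5.97 and 6.23. All deprived mice were below all controls, at a time of day when Cry2 had its highest control mean. The change was -0.68 ± 0.15 (SE), 1.60-fold lower (limma, adjusted p = 0.00121), and 1 of 5 members was called where 15.8% of all genes were (7.95% lower); 19.6% of liver genes had groups that did not overlap at T30. The 5 hepatocyte markers summed to 86474 to 104436 CPM in the ZT6 controls and 92615 to 101654 CPM at T30, and the 4 Kupffer cell markers to 123 to 328 CPM and 73.1 to 255 CPM; the 4 cholangiocyte markers, 6.99 to 17.5 CPM in controls, were 4.63 to 6.49 CPM at T30, and the part of either list in the Cry2 result was not tested. At T27 and T36, where 1.5% and 3.16% of liver genes were called, no member passed.

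The other liver values were wide. Ciart at T36 was 2.90, 4.10 and 4.22 in the deprived mice, against 4.17, 5.06, 5.06, 5.22 and 5.48 at ZT12. The lowest control overlapped the highest deprived mouse, and the change of -1.35 ± 0.51 (SE) had an adjusted p of 0.132 by limma, or 0.0302 when 1 CPM was added to every value. Bhlhe40 at T36 was 6.15, 6.35 and 6.42, below all ZT12 controls (6.54 to 7.18), with a change of -0.70 ± 0.27 (SE; limma, adjusted p = 0.147), where 7.44% of genes did not overlap. For Bhlhe40 at T27, the time of its largest change in cortex, the liver change was -0.01 with a 95% interval from -0.61 to 0.59. From T42 on no member was called in liver, where at most 0.015% of genes were called at any of these times, at T48. Of the 35 comparisons from T54 to T198, 2 had an unadjusted p under 0.05, a count for which the share of all genes was not recorded.

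Whether 3 h and 6 h of deprivation gave different changes was tested directly. No member was called in either tissue (0 of 5, where 0.00585% of cortex genes and 0.142% of liver genes were called). In cortex the T30 change minus the T27 change was -0.62 ± 0.15 (SE) for Bhlhe41 (limma, adjusted p = 0.16), -0.62 ± 0.28 (SE) for Ciart (0.63), -0.42 ± 0.21 (SE) for Bhlhe40 (0.675) and -0.30 ± 0.13 (SE) for Cry1 (0.599). In liver it was -0.67 ± 0.22 (SE) for Cry2 (limma, adjusted p = 0.185), and -0.89 with an adjusted p of 0.0399 without the mouse coded T27S3.

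Responses of cortex and liver, each taken within its own table, were compared at T27, T30, T36, T42 and T48. Of the 25 differences 1 was called, Cry2 at T30, where the cortex change was 0.11 and the liver change -0.68. The difference was 0.79 ± 0.16 (SE; limma, adjusted p = 0.000289), and 12.2% of the 12194 shared genes were called at that time. Bhlhe40 differed by 1.01 ± 0.35 (SE) at T27 (limma, adjusted p = 0.112), where 2.12% of genes were called, and by 0.86 ± 0.32 (SE) at T30 (adjusted p = 0.0607). At T36, T42 and T48 no member differed by the test, where 4.55%, 0% and 0.0574% of genes did. The 2 Bhlhe40 differences passed without single mice: T27S2 at T27 (1.36, adjusted p = 0.0448) and any of T0N1, T6N3 and J76S3 at T30 (adjusted p = 0.0498, 0.0141 and 0.0471). T0N1 and J76S3 belong to neither group compared at T30. The T30 difference was 0.89 without T0N1, 0.86 without J76S3 and 1.12 without the ZT6 control T6N3.

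Across the 17 group means of cortex, Ciart and Bhlhe41 went together (Pearson r = 0.91) and so did Cry1 and Cry2 (r = 0.82), whereas Ciart and Cry1 did not (r = -0.09). Bhlhe40 and Bhlhe41 had r = -0.26 in cortex and r = 0.81 in liver. In liver Cry1 ran opposite to Bhlhe41 (r = -0.82), and Ciart followed Bhlhe40 (r = 0.88). Between tissues over the same 17 groups, r was 0.87 for Cry1, 0.84 for Ciart, 0.33 for Bhlhe41, -0.33 for Cry2 and -0.47 for Bhlhe40. These are descriptions of 17 points that share libraries and times of day.

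**Figure D4:**
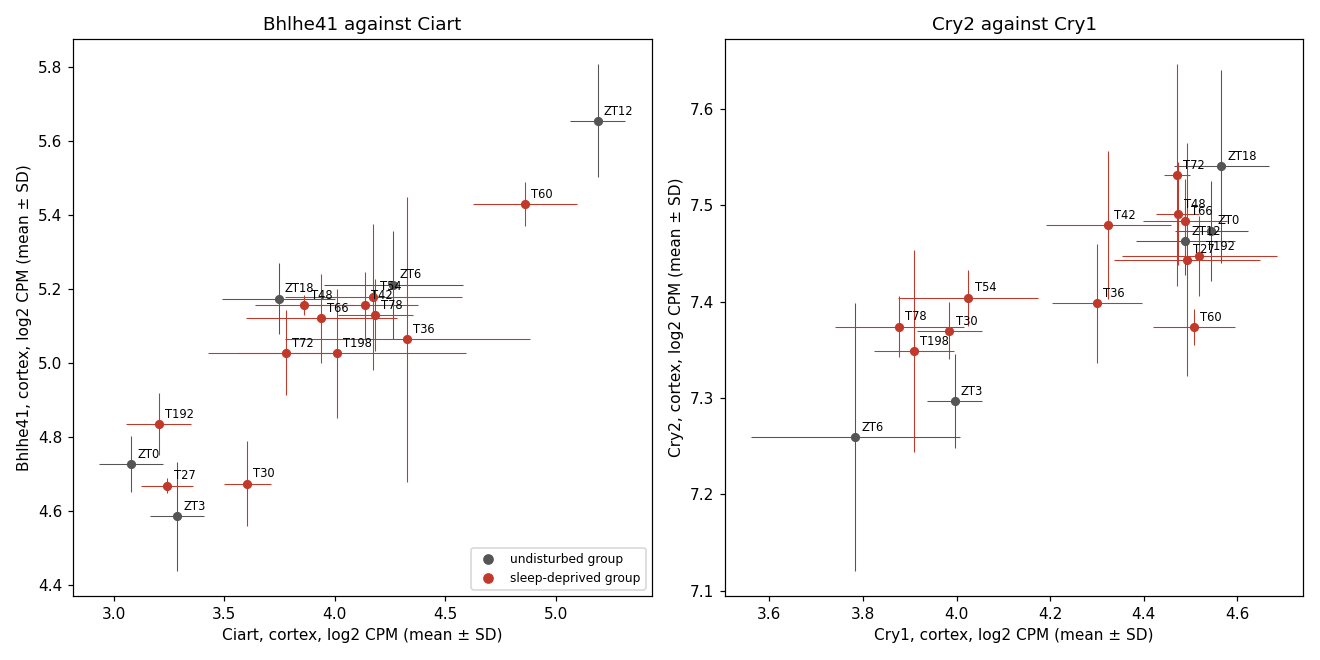
Group means ± SD in cortex for Bhlhe41 against Ciart (left) and Cry2 against Cry1 (right), in log2 CPM, with 17 groups each; grey are undisturbed and red are sleep-deprived groups. The points rise together in both panels (r = 0.91 and 0.82), and T30 and T36 lie lower and further left than their controls ZT6 and ZT12 in the left panel.

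Among genes whose group means spanned at least 0.5, a limit that leaves Cry2 out of the candidates in cortex, those whose 17 cortex means were most like Ciart were Dbp (r = 0.95), Nr1d2 (0.94) and Epha8 (0.92), and those most like Bhlhe41 were Nr1d2 (0.95), Dbp (0.93) and Per3 (0.93). Per2 was nearest to both Cry1 (0.87) and Cry2 (0.90), followed by Gpr17 (0.85) and Lonrf3 (0.81) for Cry1 and by Cry1 (0.82) and Spry3 (0.80) for Cry2. Bhlhe40 was nearest to Nuak1, Rnf165 and Zswim4 (0.94 each). In liver the nearest genes were Lonrf3 (0.97), Ddit4 (0.94) and Celsr1 (0.94) for Cry1; Per3 (0.95), Dclre1a (0.92) and Tef (0.91) for Cry2; Upp2 (0.97), Ngef (0.97) and Gys2 (0.95) for Ciart. There Bhlhe40 was nearest to Mast3 (0.93), Cyth1 (0.90) and Ppargc1a (0.90), and Bhlhe41 to Dbp (0.96), Narf (0.95) and Clmn (0.95).

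The other core clock genes, 15 measured in cortex, gave the setting of these changes. At T27 3 were higher and 2 lower, at T30 6 and 6, at T36 3 and 5, at T42 0 and 1, and at T48 4 and 1, where 16.4%, 32.4%, 12.5%, 1.03% and 1.49% of all genes were called at these times in turn. Their median change was 0.01 at T27, -0.17 at T30, -0.32 at T36, -0.02 at T42 and 0.13 at T48. Over all genes it was -0.01, -0.01, -0.00, -0.00 and 0.00 at these times in turn. Per2, the period gene that acts with the cryptochromes, was higher than its control by 1.49 ± 0.17 (SE) at T27 (limma, adjusted p = 2.02e-08) and by 1.02 ± 0.16 (SE) at T30. Nfil3, a repressor at D-boxes, was higher by 0.64, 0.97 and 0.86 at T27, T30 and T36. Dbp, an activator at D-boxes and an E-box target, was lower by the test at these times, with -0.38, -0.93 and -0.64. Its relative Tef changed by -0.26 at T30 and -0.41 at T36, the receptor gene Rorb by -0.34 at T27, and Arntl by 0.35 at T36. In liver, 14 measured, Per1 was higher at T27 (1.91 ± 0.52, SE; limma, adjusted p = 0.0404), Rora was lower at T30 (-0.48 ± 0.17, SE; adjusted p = 0.0456), and none was called at T36, T42 or T48. The test over the day called 13 of 15 in cortex and 13 of 14 in liver, beside 41.9% and 52% of all genes.

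Of 10 genes that act in the turnover of CRY and PER proteins, 1 was higher and 2 lower in cortex at T27, and 2 were higher and 2 lower at T30, where 16.4% and 32.4% of all genes were called. Csnk1d, a kinase that phosphorylates PER proteins, was higher by 0.20 and 0.17 at these times and its relative Csnk1e by 0.14 at T30. Usp2, a deubiquitinase, was lower at both (-0.33 and -0.60), as was Fbxl21, an F-box protein that acts on cryptochromes (-0.42 and -0.45). In liver at T30, where 15.8% of all genes were called and 7.95% were lower, 3 of the 10 were lower and none higher, among them Btrc, which marks PER proteins for destruction (-0.46 ± 0.09, SE; limma, adjusted p = 0.000462). None of the 10 was called at T36, T42 or T48 in either tissue.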

How the data were processed

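The authors deposited one table per tissue of log2 CPM values; both were normalised apart. The submitters' processing notes name fastp, STAR 2.7.0e, edgeR and builds mm10 and GRCm38, with no settings. Per the labels' protocols, whose text describes liver, libraries were stranded poly(A) libraries read single-end. No counts were at hand, so depth per library is unknown; back-transformed values summed to 979177 to 1020370 CPM per cortex library and 919743 to 1070240 per liver library. Entries without a gene name (77 in cortex, 35 in liver; 0.0618% and 0.0337% of the signal) were left out. The cortex values carry no difference between the 2 label batches for any gene, so they had been adjusted for it; the liver values had been adjusted for an unlabelled factor of 3 levels. The log2 values were fitted with limma 3.58.1 in R 4.3.3 (17 groups plus label batch per tissue, 44 residual degrees of freedom, eBayes with trend, two-sided, Benjamini-Hochberg over all named genes within a comparison, threshold 0.05), after the fit was tested on simulated data. The tissue comparison used both tables in a single fit over shared genes. The same mice gave both tissues by the labels' animal codes; deviations of the 2 tissues of a mouse from their group means correlated at -0.09 to 0.16 over the 62 mice. The members and gene lists were chosen with earlier results of these data known. Members were named always; from the core clock and turnover lists, up to 2 genes per direction with the smallest p among those called at T27, T30 and T36, of which 1 is not reported here; nearest genes by Pearson r over 17 group means among genes spanning at least 0.5. The cortex libraries are labelled as a re-analysis of an earlier deposit. Alternatives tried were no batch term, same-batch controls, median centring, leaving out the lowest 20% of genes, a pseudocount of 1 CPM, other variance settings, fits of the compared groups only, the liver factor as a covariate, a mouse block and leaving out each library.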

Additional observations from a re-analysis of the deposited data

Results flagged for a closer look

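The Cry2 response at T30 differed between tissues: the cortex change minus the liver change was 0.79 ± 0.16 (SE; limma, adjusted p = 0.000289), with the 3 liver values below all 5 controls.

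In the liver ZT0 controls, Bhlhe41 was -0.29 in the mouse coded T0N3, above the next highest mouse at -1.41, a gap of 0.545 of the range of the 8 mice. It was the only such value among 40 groups of 5 or 8 control mice examined, and chance flags about 1 in 20 groups.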

How the results depend on the processing

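All 10 called member changes of cortex and liver, and the called tissue difference, kept their direction and passed the threshold under each of the 7 to 9 alternative settings run on them, the liver factor as a covariate among those for liver, and no called value reversed. Among fits that left out a single library, Ciart in cortex lost its call at T36 (-0.54, adjusted p = 0.095, without T36S1) and at T48 (0.66, adjusted p = 0.129, without T48S4), and the other calls held. The cortex count of 9 called changes became 10 with same-batch controls, where Cry2 at T30 (0.15; limma, adjusted p = 0.0409) joined. It became 11 when only the compared groups were fitted, where Bhlhe40 at T60 (-0.37, adjusted p = 0.0418) and Ciart at T72 (0.78, adjusted p = 0.0333) joined. The main fit called 0% of all genes at T60 and T72. Under the alternative settings the share of all genes called was not recorded, so these added calls cannot be set against it. Members with a changed second-day profile in cortex went from 0 to 2 without a batch term. P-values without that term are too small, because the cortex values had been adjusted for label batch. The count ranged from 0 to 2 when single libraries were left out (2 without T54S4 or T66S2, 1 without T36S1 or T6N3). Called liver changes went from 1 to 2 with a pseudocount of 1 CPM. Why single libraries and the pseudocount moved these counts was not tested. With the mouse as a replicate block, which pairs the 2 tissues of each animal, 1 of 25 tissue differences was called, as without it, and no call changed. Leaving out the lowest 20% of genes removed Bhlhe41 from liver. Liver SEs of Ciart and Bhlhe41 reach 0.51 and above at T27 to T42, so changes of that size lay within 1 SE.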
